A study of Mus musculus with 17 samples.

Results

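Scinderin (Scin) and 9 other regulators of actin filaments were followed through 17 RNA sequencing libraries of mouse fetal liver cells. The 7 gelsolin-type genes are Scin, Gsn, Capg, Vil1, Avil, Flii and Svil, and the other 3 are Cfl1, Pfn1 and Flna. They were found by gene symbol, as 10 of the 47069 genes in the table that holds the LUC and Arid3a libraries, and all 10 are among the 46880 genes that the 3 deposited tables share. The set was put together because Scin was lower in the libraries labelled Arid3a than in LUC, so every value of these genes in that contrast is given as a description and none was tested.

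The cells came from E12.5 to E13.5 embryos of a mouse strain in which the CAG promoter drives Cas9 and EGFP from the Rosa locus. In 5 of the 6 groups the cells carried sgGata1, a guide RNA against Gata1, and they are called Gata1s cells here, since the study names them for GATA1s, the truncated GATA1 protein. A further transgene set the group: LUC (a luciferase control, n = 3) and Arid3a (n = 3) with doxycycline at 1 µg/mL for 48 h, or sh-ctrl (a control hairpin, n = 3), shArid3a (a hairpin against Arid3a, n = 2, numbered 1 and 3) and miR-125b (a microRNA, n = 3) with the same dose for 10 days. The WT group (n = 3) had a guide and a hairpin against luciferase (sgLuc and shLuc) and no doxycycline. The study's title names miR-125b, GATA1s and the megakaryocytic factor ARID3A in trisomy-associated leukemia, and the contrasts ask what raising or lowering Arid3a, or adding miR-125b, does to Gata1s cells.

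Proteins of the gelsolin family are built from repeated gelsolin domains that bind actin, most of them under control of calcium and phosphoinositides. Gelsolin and scinderin cut filaments and cap their fast-growing (barbed) ends, CAPG caps without cutting, and villin and advillin add a headpiece that bundles filaments. In megakaryocytes and platelets, actin turnover is used in forming proplatelets and in changing shape, scinderin is known for a part in secretion and is made during megakaryocyte differentiation, and cofilin, profilin and filamin A act on the same filaments by other means.

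The LUC and Arid3a libraries held 31339238 to 38678649 counts each, with 31992089 to 40859301 in the table of sh-ctrl, shArid3a and miR-125b and 16362439 to 19212193 in WT. Arid3a itself was at 62.1 ± 2.68 CPM (counts scaled to a common library size, SD, n = 3) in LUC and 65.7 ± 11.1 CPM (n = 3) in the libraries labelled Arid3a, a log2 fold change of 0.08 (SE 0.12) that edgeR did not call (adjusted p = 0.737), so its counts do not show the transgene. Arid3a fell in shArid3a by 1.43 on the log2 scale (edgeR adjusted p = 0.0368) and in miR-125b by 2.56 (adjusted p = 0.000282), and was lower by another 1.13 in miR-125b than in shArid3a (adjusted p = 0.024). The shArid3a call was lost without either shArid3a library, without sh-ctrl replicate 2 or 3 and without the ribosomal RNA-like genes (log2 fold change -1.48 to -1.37, edgeR adjusted p 0.0524 to 0.461). The direct call was lost without miR-125b replicate 2 or 3, without either shArid3a library and with only those groups fitted (-1.22 to -1.08, edgeR adjusted p 0.0511 to 0.164). Replicate 1 of the libraries labelled Arid3a stood apart from the other 2 (no gene of 13495 was called by edgeR with it and 3198 without it, against 2885, or 21.4%, at an unadjusted p under 0.05 with it and 1359 by DESeq2). Its mast cell and basophil markers summed to 938 CPM against 399 and 471 CPM, of which Gata2, also a gene of early megakaryocytes, made 742 against 344 and 360 CPM. Its megakaryocyte and platelet markers summed to 4736 CPM against 2991 and 3146 CPM. Megakaryocyte and platelet markers summed to 2991 to 5445 CPM in the Gata1s groups, with all 12 detected in each, while hepatoblast markers stayed at or under 5.26 CPM there. The labels do not say whether replicates came from separate embryos or cultures, so the p-values measure the spread between these libraries, which may be technical.

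The mature miR-125b-5p is shown because it is the product of one of the transgenes and because its seed can be looked for in the 3′ untranslated regions (UTRs) of these genes. It is made from Mir125b-1 (chr9:41581940-41581961, plus strand) and Mir125b-2 (chr16:77646279-77646300, plus strand), as RefSeq gives them on GRCm38.p6, and the capitals mark the seed.
mmu-miR-125b-5p: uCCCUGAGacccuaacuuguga
The transcript strand of all annotated 3′ UTRs of each gene's protein-coding transcripts (GRCm38) was searched for CTCAGGG, the match to the seed, and for CTCAGGGA, which holds the first. A match shared by transcripts was counted once. Of the 10 genes 1 had a match, Gsn, with a single CTCAGGG at chr2:35307818-35307824 on the plus strand. Its longest annotated 3′ UTR has 226 bases. The annotated 3′ UTRs of Arid3a (the longest of 3082 bases) had 6 matches, of which 2 were CTCAGGGA, at chr10:79952887-79952894 and chr10:79953820-79953827 on the plus strand. The match stands in capitals.
Gsn: aagccctgtggaaaCTCAGGGtctttacag
Arid3a, the first: gtggcctcctgtgcCTCAGGGAtgacagtg
Arid3a, the second: ccatgggtaactggCTCAGGGAtatagcag
Over the 11498 genes with an annotated 3′ UTR that were searched, 1907 (16.6%) held CTCAGGG and 681 (5.92%) held CTCAGGGA. A match describes the letters and was not tested as a site of action.

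Scin (ENSMUSG00000002565, chr12:40059769-40134228, minus strand), which severs and caps filaments in the presence of calcium, was the most abundant gelsolin-type gene per kilobase in all 17 libraries. It read 288, 332 and 321 CPM in the 3 WT libraries. LUC had 1150, 1366 and 1220 CPM, and the libraries labelled Arid3a had 536, 647 and 612 CPM. Every LUC library was above every library labelled Arid3a, and these were all above WT. The difference between LUC and Arid3a, by which the genes were picked, was 2.08-fold (log2 fold change -1.06, and -0.98 without Arid3a replicate 1). In the table with 10 days of doxycycline, sh-ctrl had 1018, 946 and 829 CPM and shArid3a 1560 and 1086 CPM. miR-125b had 1759, 1090 and 923 CPM, which overlapped both other groups of that table, while both shArid3a libraries lay above all of sh-ctrl. Neither difference from sh-ctrl passed the test: the log2 fold change was 0.49 in shArid3a (95% interval -0.10 to 1.08, edgeR adjusted p = 0.272) and 0.41 in miR-125b (-0.12 to 0.95, adjusted p = 0.228). miR-125b against shArid3a gave -0.08 (-0.67 to 0.52, adjusted p = 0.938).

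From high to low, the group means of Scin ran shArid3a, miR-125b, LUC, sh-ctrl, Arid3a and WT, a range of 4.22-fold. The first 3 groups overlapped with their neighbours, while LUC lay above sh-ctrl, sh-ctrl above Arid3a and Arid3a above WT without overlap. With library totals in place of TMM scaling (trimmed mean of M values, over all libraries), LUC came first and shArid3a next. The tables differ in doxycycline time, transgene and, for WT, genotype, and WT also differed in cell markers. Megakaryocyte and platelet markers summed to 1324 to 1551 CPM in WT and 3021 to 3487 CPM in LUC. Mast cell and basophil markers summed to 1784 to 2060 CPM in WT and 384 to 504 CPM in LUC, while erythroid markers overlapped. All of these cannot be told apart across tables, so differences between tables are levels and were not tested. Replicate 1 of sh-ctrl, shArid3a and miR-125b each gave the highest Scin value of its group.

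**Figure D1:**
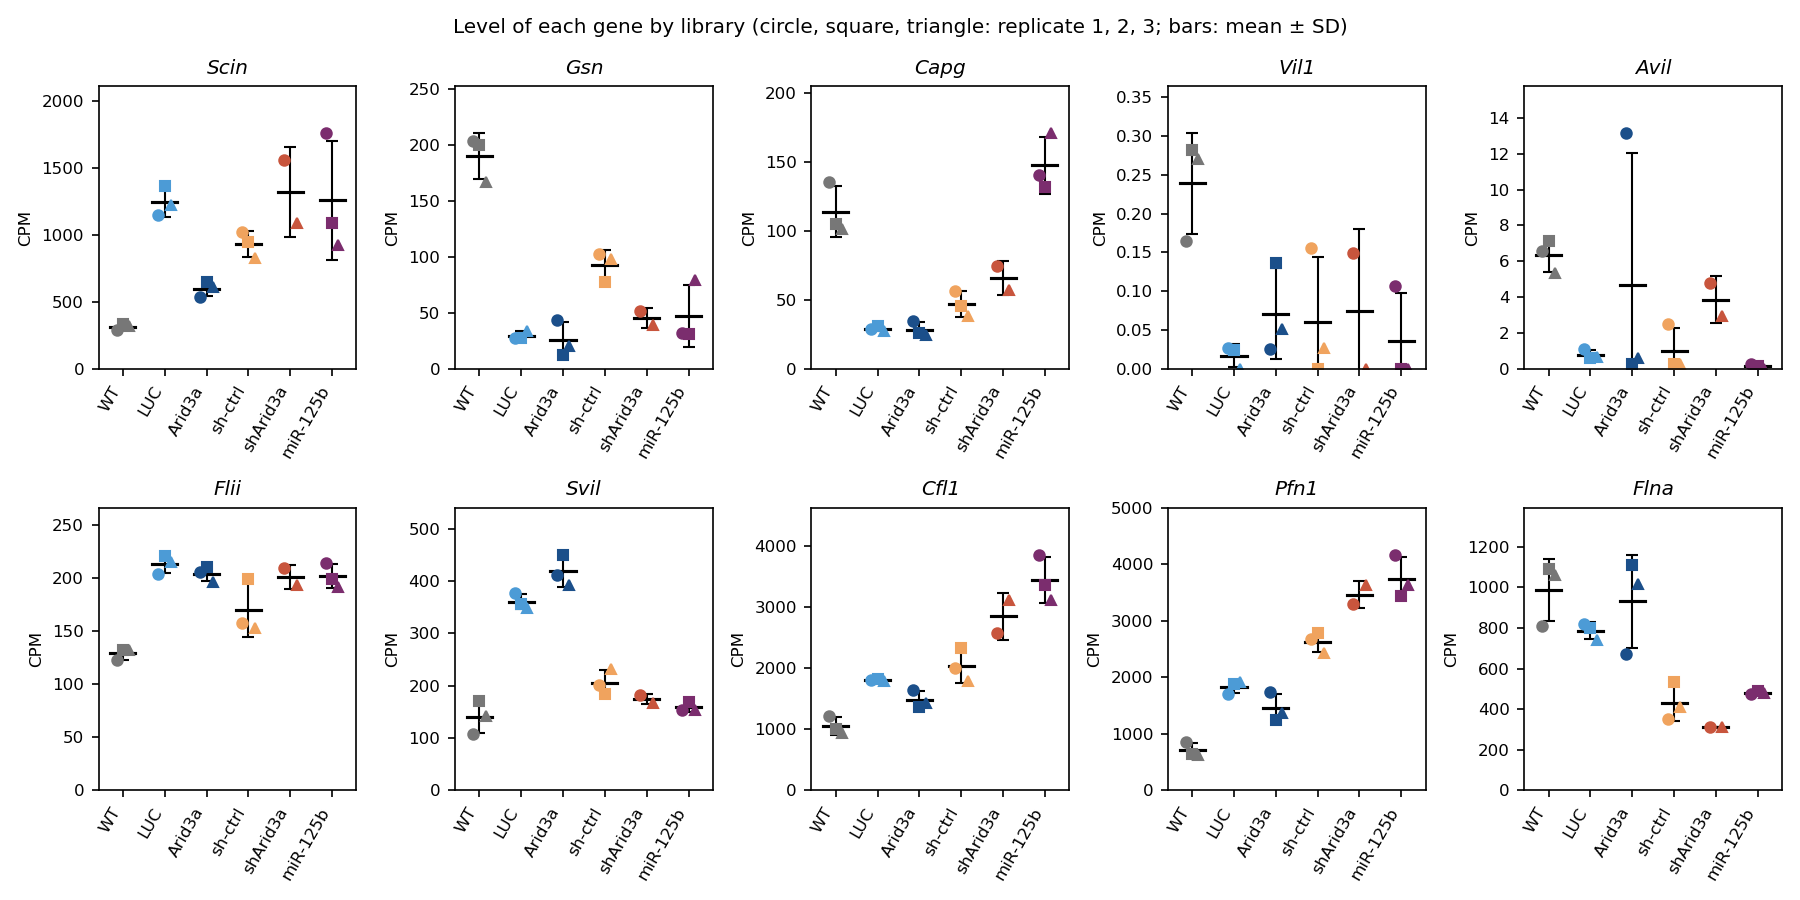
Level of each of the 10 genes in scaled counts (CPM, y axis from 0, own scale per gene) by group (x axis), with 1 point per library and the mean ± SD in black. Scin is lowest in WT (288 to 332 CPM), Gsn is highest there (167 to 204 CPM), Capg is high in WT and miR-125b, and 1 library labelled Arid3a sets the spread of Avil.

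Per base of transcript, Scin made up most of the gelsolin-type RNA in Gata1s cells and less in WT. In RPKM (CPM per kilobase of the deposited gene length), Scin held 41.7 ± 3.09% (SD, n = 3) of the summed level of the 7 gelsolin-type genes in WT and 80.9 ± 1.17% (n = 3) in LUC. It held 66.4 ± 4.06% (n = 3) in the libraries labelled Arid3a, 75.3 ± 1.38% (n = 3) in sh-ctrl and 75.4 ± 7.38% (n = 3) in miR-125b, and 80.1% and 83.0% in the 2 shArid3a libraries. The sum itself was 251 ± 9.56 RPKM in WT, 513 ± 37.8 in LUC and 300.0 ± 12.7 in the libraries labelled Arid3a (SD, n = 3 each). The other large holders in WT were Gsn at 24.0 ± 1.96% (SD, n = 3) and Capg at 21.4%, 16.0% and 16.7% in the 3 libraries, which had means of 1.85% and 2.25% in LUC. In the libraries labelled Arid3a larger shares than in LUC went to Flii, at 13.5 ± 0.515% against 8.29 ± 0.313% in LUC, and Svil, at 13.1 ± 0.566% against 6.64 ± 0.68% (n = 3 each), although Flii had nearly the same level in both groups. These shares are fixed by one another and by Scin, and were not tested.

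**Figure D2:**
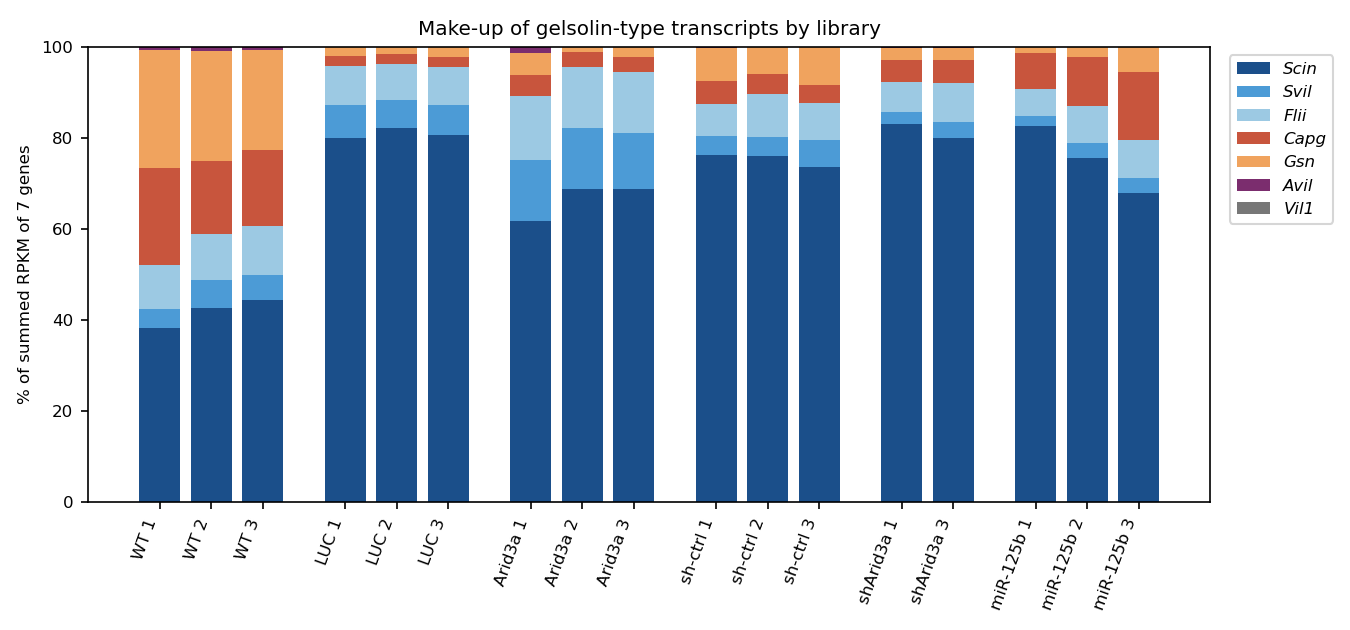
Share of each gelsolin-type gene (stacked colours, % of the summed RPKM of 7 genes, y axis from 0 to 100) in each of the 17 libraries (x axis, by group and replicate number). Scin takes 38.3 to 44.3% in WT, 61.7 to 68.8% in the libraries labelled Arid3a and 67.9 to 83.0% in the other groups.

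Gsn (ENSMUSG00000026879, chr2:35256380-35307892, plus strand) encodes gelsolin, the founding member of the family, which severs and caps filaments. WT had 204, 200 and 167 CPM, more than any other library of the series. In sh-ctrl it was 103, 77.5 and 98.2 CPM, in shArid3a 51.8 and 39.0 CPM, and in miR-125b 31.6, 31.4 and 79.1 CPM. Both shArid3a libraries and 2 of the 3 miR-125b libraries lay well below sh-ctrl, and miR-125b replicate 3 was just above the lowest sh-ctrl library on this scale. The log2 fold change was -1.05 in shArid3a (SE 0.38, 95% interval -1.88 to -0.22, edgeR adjusted p = 0.133) and -0.98 in miR-125b (SE 0.33, interval -1.71 to -0.26, adjusted p = 0.0519), neither past the threshold of 0.05. With the replicate number as a block, a pairing that the labels do not state, the miR-125b value was -1.06 and passed (edgeR adjusted p = 0.0237). It was -1.58 without miR-125b replicate 3 (adjusted p = 0.00792), and adjusted p ranged from 0.000188 to 0.137 over 15 alternatives, 8 of which called it. miR-125b and shArid3a gave nearly the same Gsn mean (47.4 and 45.4 CPM, log2 fold change 0.07, interval -0.74 to 0.88, adjusted p = 0.964). In the other table Gsn was 27.7, 27.6 and 34.0 CPM in LUC and 43.4, 12.2 and 20.8 CPM in the libraries labelled Arid3a, which overlapped (log2 fold change -0.22). It was -0.85 without Arid3a replicate 1 and 0.12 without replicate 2, so its direction rests on single libraries. On the annotation Gsn shares its locus with the gene Gm43128 on the same strand, and the counts of overlapping genes may be split.

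Capg (ENSMUSG00000056737, chr6:72544391-72562983, plus strand), which encodes the macrophage-capping protein, gave the largest called change among the 10 genes. sh-ctrl had 56.8, 45.7 and 38.4 CPM, shArid3a 75.0 and 57.5 CPM, and miR-125b 141, 132 and 171 CPM. All 3 miR-125b libraries were above every other library of their table by a wide gap, while the lower shArid3a library almost met the upper sh-ctrl library. Capg rose 3.11-fold in miR-125b (log2 fold change 1.64, SE 0.19, 95% interval 1.22 to 2.05, edgeR adjusted p = 0.0021, higher in 3 of 3 libraries), and it passed in all 15 alternatives. In shArid3a it was 0.48 (interval 0.03 to 0.93, adjusted p = 0.174). The direct contrast of miR-125b with shArid3a also passed, at 2.23-fold (log2 fold change 1.16, SE 0.21, edgeR adjusted p = 0.0296), but not when miR-125b replicate 2 or 3 or either shArid3a library was left out (adjusted p between 0.0717 and 0.126). In the other table Capg overlapped between groups, at 28.8, 31.0 and 27.5 CPM in LUC and 34.7, 26.3 and 24.9 CPM in the libraries labelled Arid3a (log2 fold change -0.02, and -0.19 to 0.07 over the alternatives). WT had 136, 106 and 102 CPM.

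Capg is also a gene of myeloid cells, and myeloid markers were measured beside it. The 12 neutrophil and monocyte markers summed to 15145 to 20393 CPM in WT, 69.1 to 118 in sh-ctrl, 43.1 to 78.2 in shArid3a and 105 to 189 in miR-125b. Of the 8 that could be tested in that table, 3 were called higher in miR-125b than in sh-ctrl (Mpo, Lyz2 and Elane), and none lower. Over all genes, 12.1% were called higher in that contrast and 12.2% lower. Against shArid3a, 2 of the 8 were called higher in miR-125b (Mpo and Lyz2), where 1.35% of all genes were called in either direction. The 8 macrophage markers summed to 0.643 to 1.62 CPM in miR-125b and 0.163 to 1.03 in sh-ctrl, with 6 of the 8 at 3 counts or fewer over each of these groups. The part of these cells in the Capg result was not tested. In these bulk libraries, fewer cells of a type and less RNA per cell cannot be told apart.

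Avil (ENSMUSG00000025432, chr10:127000709-127020994, plus strand) encodes advillin, a villin-like protein best known from sensory neurons, and was low. WT had 6.58, 7.13 and 5.33 CPM and LUC 1.09, 0.635 and 0.683 CPM. The libraries labelled Arid3a had 13.1, 0.301 and 0.623 CPM, from 522, 11 and 24 counts. A single library, replicate 1, thus held the highest value of the series, and the log2 fold change against LUC went from 2.56 to -0.79 without it. Of the 11 mast cell and basophil markers, 6 were also highest in that library of the 3, such as Cpa3 at 138 CPM against 1.51 and 28.5 CPM, while Hdc and Tpsb2 lay between the other libraries, Kit was lowest there, and Mcpt4 and Mcpt8 were at 0. The part of what sets this library apart in the Avil value was not tested. In the other table Avil had 80, 8 and 11 counts in sh-ctrl, 160 and 88 in shArid3a, and 7, 6 and 0 in miR-125b, where a count of 0 allows up to 3. Both shArid3a libraries were above all others of the table and all miR-125b libraries were below. edgeR called none of these differences: the log2 fold change was 1.91 in shArid3a (adjusted p = 0.256), -2.84 in miR-125b (adjusted p = 0.078) and -4.76 for miR-125b against shArid3a (adjusted p = 0.0809). DESeq2 called the last 2 of them (adjusted p = 0.0177 and 0.000698), and the replicate block called the direct contrast (-4.86, edgeR adjusted p = 0.0376). Over 13 alternatives the value in miR-125b against sh-ctrl ran from -3.47 to -1.0 (edgeR or DESeq2 adjusted p 0.00343 to 0.456), and 2 of them called it. In the direct contrast it ran from -5.38 to -4.15, and 3 of 13 called it. Avil overlaps Tsfm on the other strand, and the use of strand in counting is not given in the sources used here, so reads of the pair may be mixed. Tsfm had 42.6, 35.8 and 37.5 CPM in the libraries labelled Arid3a. It had 56.7, 49.8 and 43.5 CPM in sh-ctrl, 66.0 and 84.2 CPM in shArid3a and 85.6, 75.2 and 64.6 CPM in miR-125b. The part of Tsfm reads in the Avil values was not tested. Vil1, which encodes villin of the intestinal brush border, had 0 to 6 counts per library and passed no filter, so it has levels and no fold change.

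The large, multi-domain members Flii and Svil differed less. Flii (ENSMUSG00000002812, chr11:60714123-60727263, minus strand), the flightless homolog that joins gelsolin domains to leucine-rich repeats, was at 129 ± 5.70 CPM in WT, 214 ± 8.67 in LUC, 205 ± 6.93 in the libraries labelled Arid3a, 170 ± 25.4 in sh-ctrl and 202 ± 11.6 in miR-125b (SD, n = 3 each), with 210 and 194 CPM in shArid3a. It was lower in WT than in every other library and was called in no contrast with a test (log2 fold change 0.22 in shArid3a, 95% interval -0.12 to 0.56, edgeR adjusted p = 0.385, and 0.23 in miR-125b, interval -0.08 to 0.53, adjusted p = 0.248). Flii overlaps Llgl1 on the other strand, and reads of that pair may be mixed too. Svil (ENSMUSG00000024236, chr18:4920540-5119299, plus strand), which encodes supervillin, a link between actin, myosin and membranes, had 377, 357 and 348 CPM in LUC and 412, 450 and 393 CPM in the libraries labelled Arid3a, with no overlap and Arid3a higher. In the table with the hairpins it read 201, 184 and 231 CPM in sh-ctrl, 182 and 167 CPM in shArid3a and 153, 169 and 154 CPM in miR-125b. Svil fell in miR-125b by 0.39 on the log2 scale (SE 0.12, edgeR adjusted p = 0.0454, lower in 3 of 3 libraries). The call was lost with the replicate block (adjusted p = 0.0713) and in 5 of the 6 fits that left out 1 library of either group, the exception being sh-ctrl replicate 2. In shArid3a the log2 fold change was -0.25 (edgeR adjusted p = 0.278).

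The 3 members outside the gelsolin fold are Cfl1, Pfn1 and Flna. Cfl1 (ENSMUSG00000056201, chr19:5490485-5494029, plus strand) encodes cofilin, which severs old filaments and returns monomers. It read 2002, 2328 and 1787 CPM in sh-ctrl, 2583 and 3120 CPM in shArid3a and 3861, 3361 and 3113 CPM in miR-125b. No sh-ctrl library reached the others. Cfl1 rose 1.67-fold in miR-125b (log2 fold change 0.74, SE 0.16, 95% interval 0.37 to 1.10, edgeR adjusted p = 0.0142, higher in 3 of 3 libraries), which was not called without sh-ctrl replicate 3 (0.63, adjusted p = 0.0662). In shArid3a the value was 0.46 (interval 0.06 to 0.86, edgeR adjusted p = 0.153). Pfn1 (ENSMUSG00000018293, chr11:70651850-70654644, minus strand) encodes profilin, which hands monomers to growing ends. It had 2676, 2780 and 2425 CPM in sh-ctrl, 3289 and 3625 CPM in shArid3a and 4168, 3429 and 3638 CPM in miR-125b. All libraries of both treated groups lay above sh-ctrl. Pfn1 rose 1.41-fold in miR-125b (log2 fold change 0.49, SE 0.15, edgeR adjusted p = 0.0353), but the call was lost with the replicate block (0.49, adjusted p = 0.0736), with library totals (0.30, adjusted p = 0.0587) and without any 1 of the 6 libraries compared (adjusted p between 0.0513 and 0.138). In shArid3a it was 0.37 (interval 0.01 to 0.73, edgeR adjusted p = 0.182).

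In the other table both genes were lower in the libraries labelled Arid3a than in LUC. Cfl1 had 1806, 1831 and 1798 CPM in LUC and 1651, 1368 and 1434 CPM in the libraries labelled Arid3a, with no overlap (log2 fold change -0.29). Pfn1 had 1698, 1883 and 1912 CPM in LUC and 1733, 1245 and 1368 CPM there, with replicate 1 inside the LUC range (log2 fold change -0.34, and -0.49 without it). WT was the lowest group for both, at 1056 ± 141 CPM for Cfl1 and 709 ± 134 CPM for Pfn1 (SD, n = 3). Cfl1 overlaps Snx32 on the other strand. Per kilobase, Cfl1 stood at 1776 ± 238 RPKM, Pfn1 at 1092 ± 75.9 and Scin at 310 ± 31.9 RPKM in sh-ctrl (SD, n = 3).

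Flna (ENSMUSG00000031328, chrX:74223461-74249820, minus strand) encodes filamin A, which cross-links filaments and ties them to membrane receptors of platelets. It differed mainly between the tables: WT had 809, 1090 and 1062 CPM, LUC 821, 800 and 740 CPM, and the libraries labelled Arid3a 673, 1109 and 1015 CPM. sh-ctrl had 353, 532 and 410 CPM, shArid3a 314 and 312 CPM and miR-125b 475, 491 and 480 CPM. Both shArid3a libraries were under all of sh-ctrl and all of miR-125b, but edgeR did not call Flna (log2 fold change -0.49 in shArid3a, adjusted p = 0.138, 0.14 in miR-125b, adjusted p = 0.549, and 0.62 for miR-125b against shArid3a, 95% interval 0.22 to 1.02, adjusted p = 0.131). DESeq2 called the direct contrast (adjusted p = 0.0197). The miR-125b value was -0.05 with library totals, so its direction depends on the scaling.

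Counted together, 9 of the 10 genes passed the filter on low counts in each of the 2 tables that hold a contrast. In shArid3a against sh-ctrl, edgeR called 0 of the 9, where 0.0857% of all 14004 genes tested were called. At an unadjusted p under 0.05 the count was 5 of 9 against 25.8% of all genes. DESeq2 called 1, Gsn (adjusted p = 0.0288), beside 1600 of the 14004 genes that passed the filter. In miR-125b against sh-ctrl 4 of 9 were called (3 higher, Capg, Cfl1 and Pfn1, and 1 lower, Svil) where 24.4% of all genes were (12.1% higher and 12.2% lower). At an unadjusted p under 0.05 it was 6 of 9, where 39.8% of all genes were. With the replicate block Capg and Cfl1 kept their calls, Svil and Pfn1 lost theirs, and Gsn, lower, gained one. In miR-125b against shArid3a it was 1 of 9 (Capg) where 1.35% of all genes were called, and 3 of 9 at an unadjusted p under 0.05, where 14.5% were. With libraries scaled within their table, the groups did not overlap for 7 of 9 genes in shArid3a, 4 higher and 3 lower, where 43.8% of all genes did not (21.3% higher and 22.5% lower). In miR-125b it was 6 of 9, 3 higher and 3 lower, where it was 44.8% of all genes (21.7% higher and 23.1% lower), and in the direct contrast 4 of 9, 3 higher and 1 lower, where it was 29.7% (14.6% higher and 15.2% lower). In the contrast the genes were chosen on, 3 of 9 did not overlap (Scin and Cfl1 lower, Svil higher) where 27.4% of all genes did not, and without Arid3a replicate 1 it was 8 of 9 (6 lower and 2 higher) where 53.1% did not. Scin was picked for its difference there, and replicate 1 was left out after the data were seen. The shares of all genes are not split by direction. These counts are thus a description and lend the set no support.

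**Figure D3:**
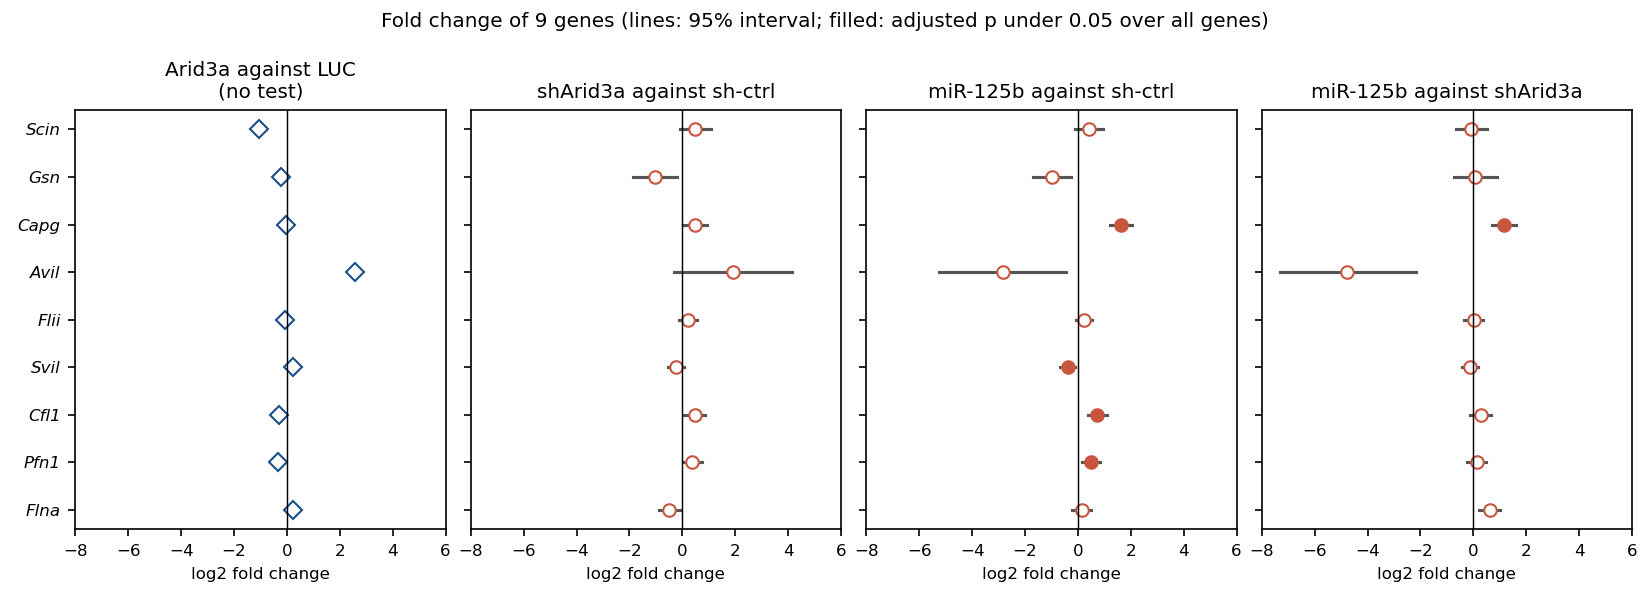
Log2 fold change (x axis) of the 9 genes that passed the filter (y axis) in each contrast, with lines for the 95% interval where a test was made and filled points for an edgeR adjusted p under 0.05. Capg is called in both contrasts with miR-125b (1.64 and 1.16), and Avil has the widest intervals.

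The median log2 fold change of the 9 genes was 0.37 in shArid3a and 0.23 in miR-125b, beside -0.02 and -0.03 over all genes tested. These contrasts share the sh-ctrl libraries, so a library of that group moves both. Scaling moved them too: with library totals the median of all genes was -0.22 in each, and 26.6% of the genes called in miR-125b were higher in place of 49.8%. Measures of library make-up and cell markers differed between the groups of that table. Transcripts that resemble ribosomal RNA (5 genes) took 0.0295 to 0.0563% of counts in sh-ctrl and 0.223 to 0.324% in shArid3a and miR-125b, and genes of the mitochondrial genome took 2.53 to 4.54% in sh-ctrl and 1.89 to 3.01% in the other 2 groups. With the 5 ribosomal-like genes left out, Capg, Cfl1, Pfn1 and Svil were still called in miR-125b and Gsn was called too (-0.99, edgeR adjusted p = 0.0483). Of 12 megakaryocyte and platelet markers 6 fell and 1 rose in miR-125b against sh-ctrl, of 8 erythroid markers tested 3 fell, and of 11 mast cell and basophil markers 2 rose (Prss34 and Mcpt8), where 12.1% of all genes were called higher and 12.2% lower. Replicate 1 of miR-125b held most of both, with Prss34 at 67.4 CPM against 3.21 and 3.05 CPM, and Mcpt8 at 49.0 CPM against 0.9786 and 1.735 CPM. Its mast cell and basophil markers summed to 717 CPM against 311 and 303 CPM. The part of the mitochondrial share and of these cell types in the results was not tested.

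The wider actin machinery was read from 10 lists with 72 genes present in the tables, of which 67 were tested in the table with the hairpins. In shArid3a edgeR called 0 of 67 (16 of 67 at an unadjusted p under 0.05, where 25.8% of all genes were). DESeq2 called 6 of 67 there, all lower, beside 1600 of the 14004 genes that passed the filter, called in either direction. In miR-125b 17 were higher and 7 lower, together 24 of 67 where 24.4% of all genes were called, and without sh-ctrl replicate 3 these were 3 and 1. With library totals the split was 10 higher and 13 lower. The counts by list that follow are small and stand beside 12.1% of all genes called higher and 12.2% called lower. Actg1, which encodes cytoplasmic gamma-actin, rose 2.18-fold in miR-125b (edgeR adjusted p = 0.0076), and Actb was not called. Among the 15 genes of the Arp2/3 complex, which seeds branches on filaments, and its activators, 5 rose, among them the subunit gene Arpc1b (log2 fold change 0.60, edgeR adjusted p = 0.0201) and Brk1 of the WAVE complex (0.62, adjusted p = 0.0233), and the activator gene Was fell by 0.44 (adjusted p = 0.0442).

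Regulators of cofilin were split. Of 13 tested, Dstn, the cofilin-like depolymerizing factor, rose in miR-125b by 0.63 on the log2 scale (edgeR adjusted p = 0.019), as did Coro1a (0.72, adjusted p = 0.0236). Ssh1 and Ssh2, phosphatases that activate cofilin, fell by 1.07 (edgeR adjusted p = 0.0107) and 0.66 (adjusted p = 0.0442). Of the 8 tropomyosin and non-muscle myosin genes tested, 4 rose and 1 fell, led by the light chain genes Myl6 (0.89, edgeR adjusted p = 0.00853) and Myl12a (0.63, adjusted p = 0.0262), while Tpm4 fell by 0.74 (adjusted p = 0.0454). Among monomer-binding genes Pfn2 rose 2.51-fold from a low level (6.23 against 2.45 CPM, edgeR adjusted p = 0.0158) and Twf2 by 0.51 on the log2 scale (adjusted p = 0.0274). Of the 8 genes for end-capping proteins, Capzb rose by 0.55 (edgeR adjusted p = 0.0179), Capza1 fell by 0.44 (adjusted p = 0.04), and Eps8 fell by 3.03 (adjusted p = 0.0253) at 0 to 13 counts per miR-125b library. Of the 6 formin genes 1 fell, Daam1, by 1.17 (edgeR adjusted p = 0.0249), and of Srf and its cofactors 0 of 3 were called. Vill, a further gene of the villin type, was tested and not called. Among the list genes followed one by one, Actn1, Ssh1, Dstn, Capzb, Arpc1b, Brk1, Daam1, Eps8, Twf2, Lcp1 and Myl12a each lost the call without sh-ctrl replicate 3. The other called genes, such as Coro1a, Ssh2, Was, Tpm4 and Capza1, were not followed one by one. In that fit only 3 genes of all lists were called higher and 1 lower.

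**Figure D4:**
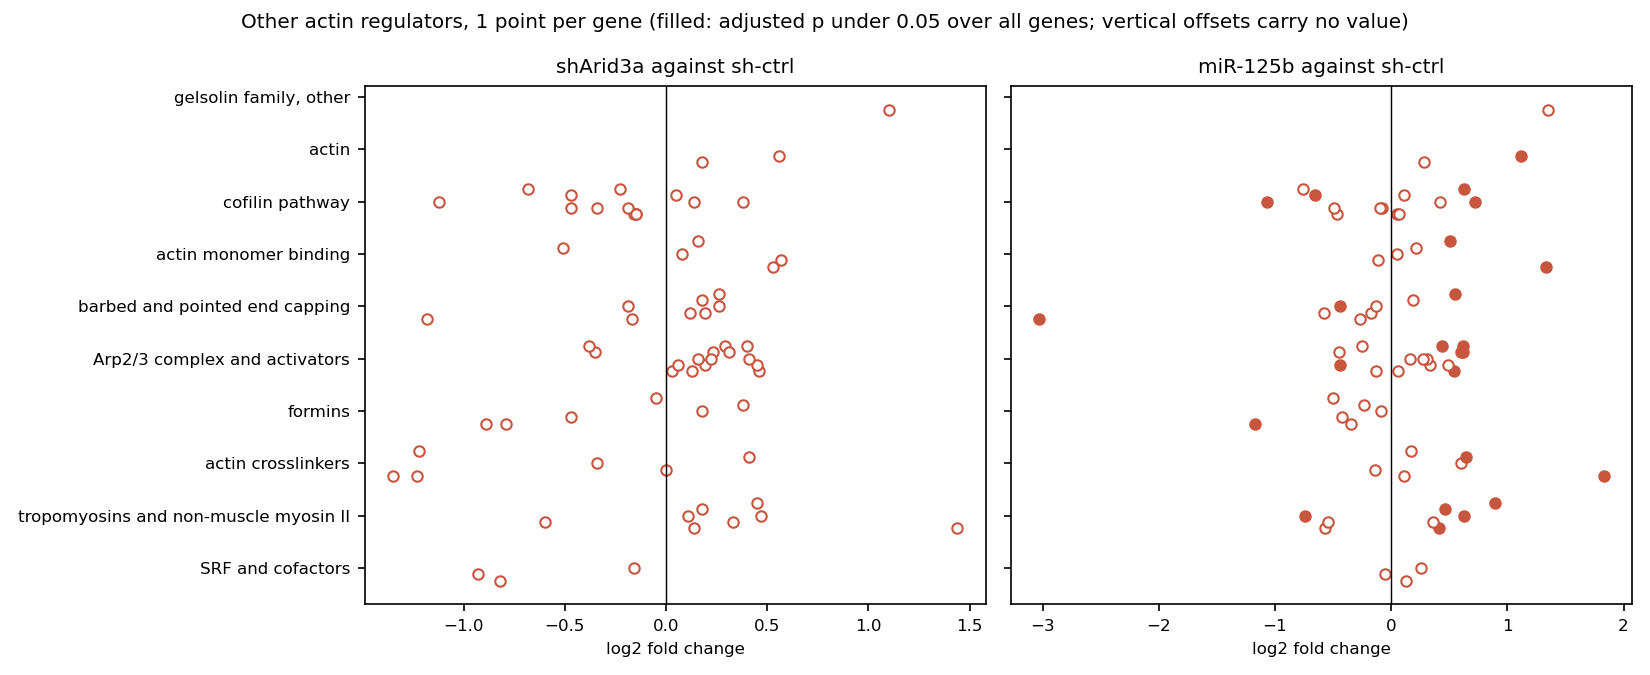
Log2 fold change (x axis, own scale per panel) of each tested gene of the 10 actin lists (rows) in shArid3a and miR-125b against sh-ctrl, with filled points for an edgeR adjusted p under 0.05. No point is filled for shArid3a, and for miR-125b 17 filled points lie to the right of 0 and 7 to the left.

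Of 6 cross-linker genes tested, 2 were called in miR-125b against shArid3a, where 1.35% of all genes were. Actn1, which encodes alpha-actinin of stress fibres and platelets, was 9.49, 15.4 and 10.8 CPM in sh-ctrl, 4.73 and 4.72 CPM in shArid3a and 17.5, 49.9 and 61.2 CPM in miR-125b. It rose in miR-125b against sh-ctrl (log2 fold change 1.83, SE 0.39, edgeR adjusted p = 0.0126), was at -1.35 in shArid3a (adjusted p = 0.122), and the direct contrast gave 3.19, or 9.1-fold (SE 0.49, edgeR adjusted p = 0.0151). Pls1, a plastin that bundles filaments, was also higher in miR-125b than in shArid3a (1.39, edgeR adjusted p = 0.0392), as was Dstn (0.86, adjusted p = 0.0456), which lost the call with the replicate block (0.87, adjusted p = 0.0574). These were the 3 genes of the lists called in the direct contrast (of 67, against 1.35% of all genes), and none of the 3 was called without either shArid3a library or without miR-125b replicate 2 (edgeR adjusted p = 0.148 for Actn1 without shArid3a replicate 1).

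Over the 17 libraries, the genes whose log2 CPM followed Scin most closely among 8866 compared were Hmga1 (Pearson r = 0.949), Nt5m (0.946), Suclg2 (0.945), Scamp3 (0.941) and Socs2 (0.937). The 17 points share tables, depth and the step between WT and Gata1s cells, and over the 14 Gata1s libraries alone r was 0.834 to 0.862. Socs2, which encodes a suppressor of cytokine signalling, was at most 15.3 CPM in WT, 67.0, 65.8 and 67.6 CPM in LUC and 46.9, 44.2 and 39.5 CPM in the libraries labelled Arid3a. It was lower in the libraries labelled Arid3a than in LUC without overlap, as were Hmga1, Nt5m, Suclg2 and Scamp3, which is part of what likeness to Scin selects. In miR-125b against sh-ctrl, Socs2 (0.42, edgeR adjusted p = 0.0317) and Scamp3 (0.50, adjusted p = 0.0462) rose, and with library totals neither did (adjusted p = 0.202 and 0.173). Each also lost its call in 5 of the 6 fits that left out 1 library of either group (edgeR adjusted p 0.0669 to 0.124 for Socs2 and 0.0558 to 0.158 for Scamp3). Hmga1, Nt5m and Suclg2 had log2 fold changes of 0.26 to 0.32 that were not called.

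**Figure D5:**
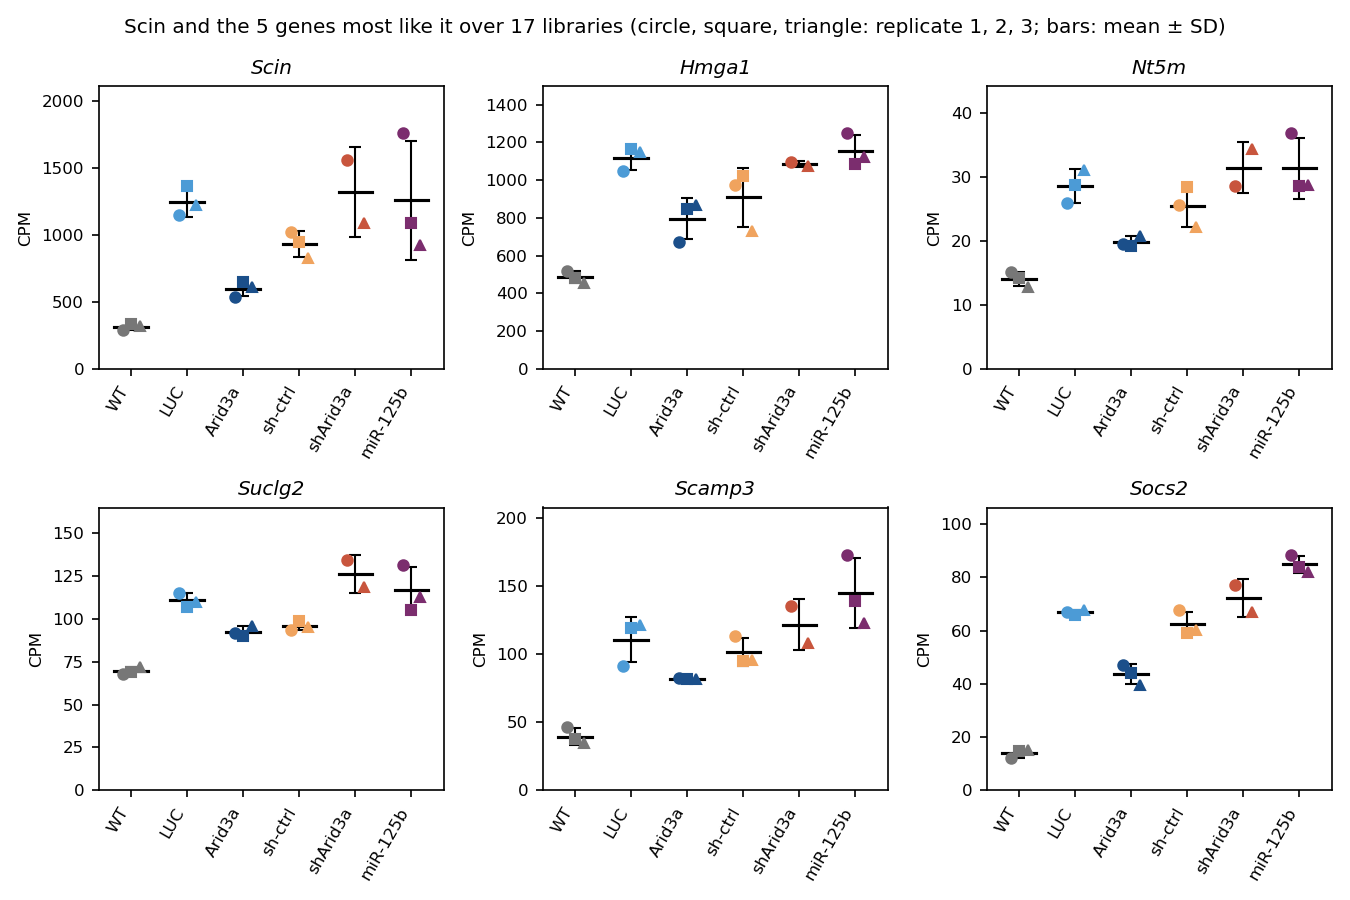
Level in CPM (y axis from 0, own scale per gene) of Scin and the 5 genes with the highest correlation with it, by group (x axis), with 1 point per library and the mean ± SD in black. All 6 genes are lowest in WT and lower in the libraries labelled Arid3a than in LUC.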

How the data were processed

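RNA was sequenced from 17 libraries in 6 groups, taken from the labels. Raw counts of reads for each gene were deposited in 3 tables, with a gene length in bases that was used here for RPKM. Per the submitters' processing notes, the tools were fastp, HISAT2 2.0.5 and featureCounts with mm10; settings, annotation release and use of strand are not given in the sources used here. Tables were joined by Ensembl identifier.

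The 2 tables that hold a contrast were each fitted in edgeR 4.0.16 (R 4.3.3): TMM scaling, filterByExpr by group, 1 term per group, glmQLFit and glmQLFTest, Benjamini-Hochberg adjustment over all genes tested, threshold 0.05. Intervals are 95%. The script was tested on simulated data. Levels in CPM used TMM over all libraries, and logs a prior count of 2. The groups with 10 days of doxycycline shared 1 fit. Deviations from the group means correlated at r = 0.449, 0.148 and 0.492 between same-numbered miR-125b and sh-ctrl libraries. Replicate 2 of miR-125b and replicate 3 of sh-ctrl, of unlike number, gave 0.289, so a pairing by number is uncertain. Between same-numbered miR-125b and shArid3a libraries r was 0.0177 and 0.0428. The replicate block is an alternative, given beside results of both contrasts whose call it changes, for the genes followed one by one. Counts are reads without molecular identifiers, so floors cover counting error only.

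The members and lists were chosen with earlier results of these data known. Named genes were the members, Arid3a, the 2 called genes of each list with the smallest adjusted p per contrast, and the 5 genes most like Scin in log2 CPM (average of at least 3). Actb, Coro1a, Ssh2, Was, Tpm4, Capza1, Cpa3, Gata2, Kit, Hdc, Tpsb2, Mcpt4, Vill, Tsfm and the called markers were named after their values were seen. Alternatives were DESeq2 1.42.0, other scalings, other filters, a robust fit, the block, fewer libraries and no ribosomal RNA-like genes. UTRs came from GENCODE on GRCm38.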

Additional observations from a re-analysis of the deposited data

How the results depend on the processing

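Of the alternatives for the tested fold changes of the members, 336 kept direction and side of the threshold, 16 gained a call, 21 lost one and 10 turned direction. Of 117 for the untested fold changes against LUC, 6 turned direction (4 of Capg, 1 of Gsn and 1 of Avil). Genes called in the libraries labelled Arid3a against LUC were 0, with 1359 by DESeq2, 71 with no filter on low counts and 0 to 3198 when 1 library was left out, and members not overlapping there went from 2 to 6 (lower) and 1 to 2 (higher) without Arid3a replicate 1, an alternative chosen after seeing the data. In shArid3a 12 genes were called, with 1600 by DESeq2, 1237 with no filter, 19 with at least 10 counts in every library, 20 with library totals, 19 with the robust fit, 0 without the ribosomal RNA-like genes and 2 to 11 when 1 library was left out; of the members 1 was called by DESeq2 and 1 with no filter. In miR-125b against sh-ctrl 3414 genes were called, 4367 by DESeq2 and 734 to 2872 when 1 library was left out (734 without sh-ctrl replicate 3), and of the members 4 were called, 6 by DESeq2 and 1 to 3 when 1 library was left out (1 without sh-ctrl replicate 3). In miR-125b against shArid3a 189 were called, with 737 by DESeq2, 715 with no filter and 12 to 329 when 1 library was left out; of the members 3 were called by DESeq2, 2 with no filter, 2 with the replicate block (Capg and Avil) and 0 to 1 when 1 library was left out.

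Small values turned direction. With library totals Flna was at -0.05 in miR-125b, Pls1 at -0.02 in miR-125b and Twf2 at -0.03 in shArid3a. With 1 library left out, log2 fold changes ran from -0.02 to 0.21 for Arid3a against LUC, from 0.00 to 0.31 for Flna and -0.15 to 0.36 for Pls1 in miR-125b, and in miR-125b against shArid3a from -0.4 to 0.23 for Scin, -0.53 to 0.31 for Gsn, -0.07 to 0.08 for Flii, -0.07 to 0.22 for Ssh1 and -0.13 to 0.11 for Nt5m. In the same contrast Nt5m was at 0.01 by DESeq2, with RLE size factors, with no filter, with only the compared groups and without ribosomal RNA-like genes, at 0.00 with at least 10 counts in every library, and Flii was at -0.05 with the replicate block. Among the members, Arid3a, the genes picked from the lists by adjusted p and those most like Scin, the block changed few calls. These were Gsn, Svil and Pfn1 in miR-125b against sh-ctrl, Avil and Dstn in miR-125b against shArid3a, and no other. Genes named after their values were seen were not followed through the alternatives one by one. In the other contrasts same-numbered libraries did not deviate together throughout (r = 0.273 and -0.115 in shArid3a and sh-ctrl, and 0.0177 and 0.0428 in miR-125b and shArid3a). Depth limits Avil and Vil1, with 0 to 522 counts per library.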

Other observations

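Some actin genes were at levels in WT that no Gata1s library reached. Dstn had 266 to 291 CPM in the 3 WT libraries and 53.3 to 122 CPM in the other 14. Actn1 had 78.8 to 93.6 CPM in WT and 4.72 to 61.2 CPM in the others. Pfn2 was at 4 to 12 counts per library in WT and at 26 to 248 counts in the others. WT lies in a table of its own and also differed in cell markers, so these are levels with no test.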
